A study of Mus musculus with 12 samples.

Results

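Genes of glycolysis and of the hypoxia response were followed in cultured mouse kidney epithelial cells with and without the stress-activated kinase JNK. They were the rows of the deposited tables whose gene column held a listed glycolytic enzyme or a gene of the hypoxia-inducible factor (HIF) pathway. All 36 listed genes were found, each on 1 of 31026 entries, and they fall into 6 oxygen-sensing genes, 2 transporters, 14 glycolytic enzymes, 4 regulatory kinases and 10 other HIF targets. The cells came from C57BL/6 mice and were compared to learn what JNK contributes to anoikis, a form of cell death set off by loss of attachment. JNK-deficient cells are labelled Jnk1-/- Jnk2-/-. They carried a floxed Jnk1, a constitutive null Jnk2 and Rosa-CreER, a Cre recombinase fused to an estrogen receptor domain and expressed from the widely active Rosa26 locus. Control cells carried Rosa-CreER with no Jnk allele named, so the Cre transgene was shared by both genotypes. Cells of each genotype were suspended for 4 hours or kept as attached monolayers, which gives 4 groups of 3 samples each. The sources used here do not state if samples within a group were separate cultures, or if a line was 1 clone.

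Glycolysis turns glucose into pyruvate in the cytosol, and lactate dehydrogenase turns pyruvate into lactate so that the pathway can run without oxygen. HIF is a pair of an oxygen-labile alpha subunit and a stable partner. In normal oxygen, prolyl hydroxylases of the EGLN family mark the alpha subunit and the VHL protein directs its destruction. In low oxygen it escapes, binds DNA and raises genes of glucose uptake, glycolysis, blood vessel growth and mitophagy. Much of this control acts on HIF protein, which RNA levels do not show. In the kidney, proximal tubule cells rely mainly on oxidative metabolism, while more distal segments use more glycolysis.

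For each group the authors' deposited tables list a single FPKM level (RNA fragments counted per length of transcript and per sequencing depth), with a q-value for each of 4 pairwise comparisons. No sample has a value of its own. The spread between samples and the depth behind each value are therefore unknown, and a q-value below 0.05 is the authors' own call. Log2 fold changes have suspended over attached cells, or JNK-deficient over control cells, and were computed from the FPKM values of 1 table. Mapk8, which encodes JNK1, was lower in JNK-deficient cells by the authors' deposited tables (log2 fold change -1.95 attached and -2.11 suspended), and so was Mapk9, which encodes JNK2 (-0.52 and -0.74). All 9 epithelial markers were at 1 FPKM or more in every group of the authors' deposited tables. Their summed level was 2568 FPKM in suspended and 4321 FPKM in attached JNK-deficient cells, and 2550 and 4716 FPKM in suspended and attached control cells, by the authors' deposited tables. Of 5 proximal tubule markers, Aqp1 alone reached 1 FPKM, and Slc34a1 was listed at 0 in all 4 groups of the authors' deposited tables. Summed fibroblast and endothelial markers reached at most 3.29 FPKM in any group, while 6 leukocyte markers summed to 55.7 to 77.9 FPKM, by the authors' deposited tables. The fibroblast sum was 1.55 FPKM in suspended and 0.397 FPKM in attached JNK-deficient cells, and 3.29 and 0.318 FPKM in suspended and attached control cells, by the authors' deposited tables. The leukocyte sum was 77.9 and 77.8 FPKM in suspended and attached JNK-deficient cells, and 70.0 and 55.7 FPKM in suspended and attached control cells, by the authors' deposited tables. By their tests, 3 of 4 leukocyte markers tested rose and 1 fell with suspension in each genotype, 1 of 1 fibroblast marker rose in each, and 2 of 2 endothelial markers rose in control cells, where every endothelial marker stayed under 1 FPKM. The proximal tubule sum was 193 FPKM in suspended and 343 FPKM in attached JNK-deficient cells. It was 46.6 and 119 FPKM in suspended and attached control cells, by the authors' deposited tables. The lower epithelial and proximal tubule sums and these marker calls stand alongside the suspension results below, and their part in them was not tested. In such bulk samples, fewer cells of a type and less RNA per cell cannot be told apart.

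Levels within the set spanned more than 3 orders of magnitude. Gapdh, the enzyme that oxidises glyceraldehyde 3-phosphate, had the highest level in each group of the authors' deposited tables. It stood at 1213 FPKM in suspended and 1366 FPKM in attached JNK-deficient cells, and at 1124 and 1266 FPKM in suspended and attached control cells, by the authors' deposited tables. Aldoa, the main aldolase of most tissues, came next in each group, at 409 to 824 FPKM. The lowest were Epas1, which encodes HIF-2 alpha (0.406 to 0.922 FPKM), and Slc16a3, the lactate exporter MCT4 (0.168 to 1.07 FPKM), in the suspension tables the authors deposited. Hif1a, which encodes HIF-1 alpha, made up 98.6% to 99.5% of the summed FPKM of the Hif1a and Epas1 pair in the 4 groups.

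Suspension for 4 hours split the set in both genotypes. Among JNK-deficient cells, 8 of the 36 genes rose and 18 fell by the authors' deposited table, against 30.6% and 29% of all 13136 genes tested (59.7% in either direction). Among control cells, 11 of 35 genes tested rose and 17 fell, against 33% and 32.1% of all 13386 genes tested (65.1% in either direction), by the authors' deposited table. The median log2 fold change of the set was -0.34 in JNK-deficient and -0.17 in control cells, beside 0.04 and 0.02 over all genes tested. By these calls, 14 genes fell in both genotypes and 7 rose in both. The share of all genes with the same call in both genotypes is not given here, so these counts only describe the set. The 7 were the kinase genes Pdk1, Pdk2 and Pfkfb4 and the HIF targets Adm, Bnip3, Ndrg1 and Kdm3a. The 14 included 8 enzymes, the glucose transporter gene Slc2a1, the hydroxylase genes Egln1 and Egln2, and Vegfa, Ankrd37 and P4ha1.

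**Figure D1:**
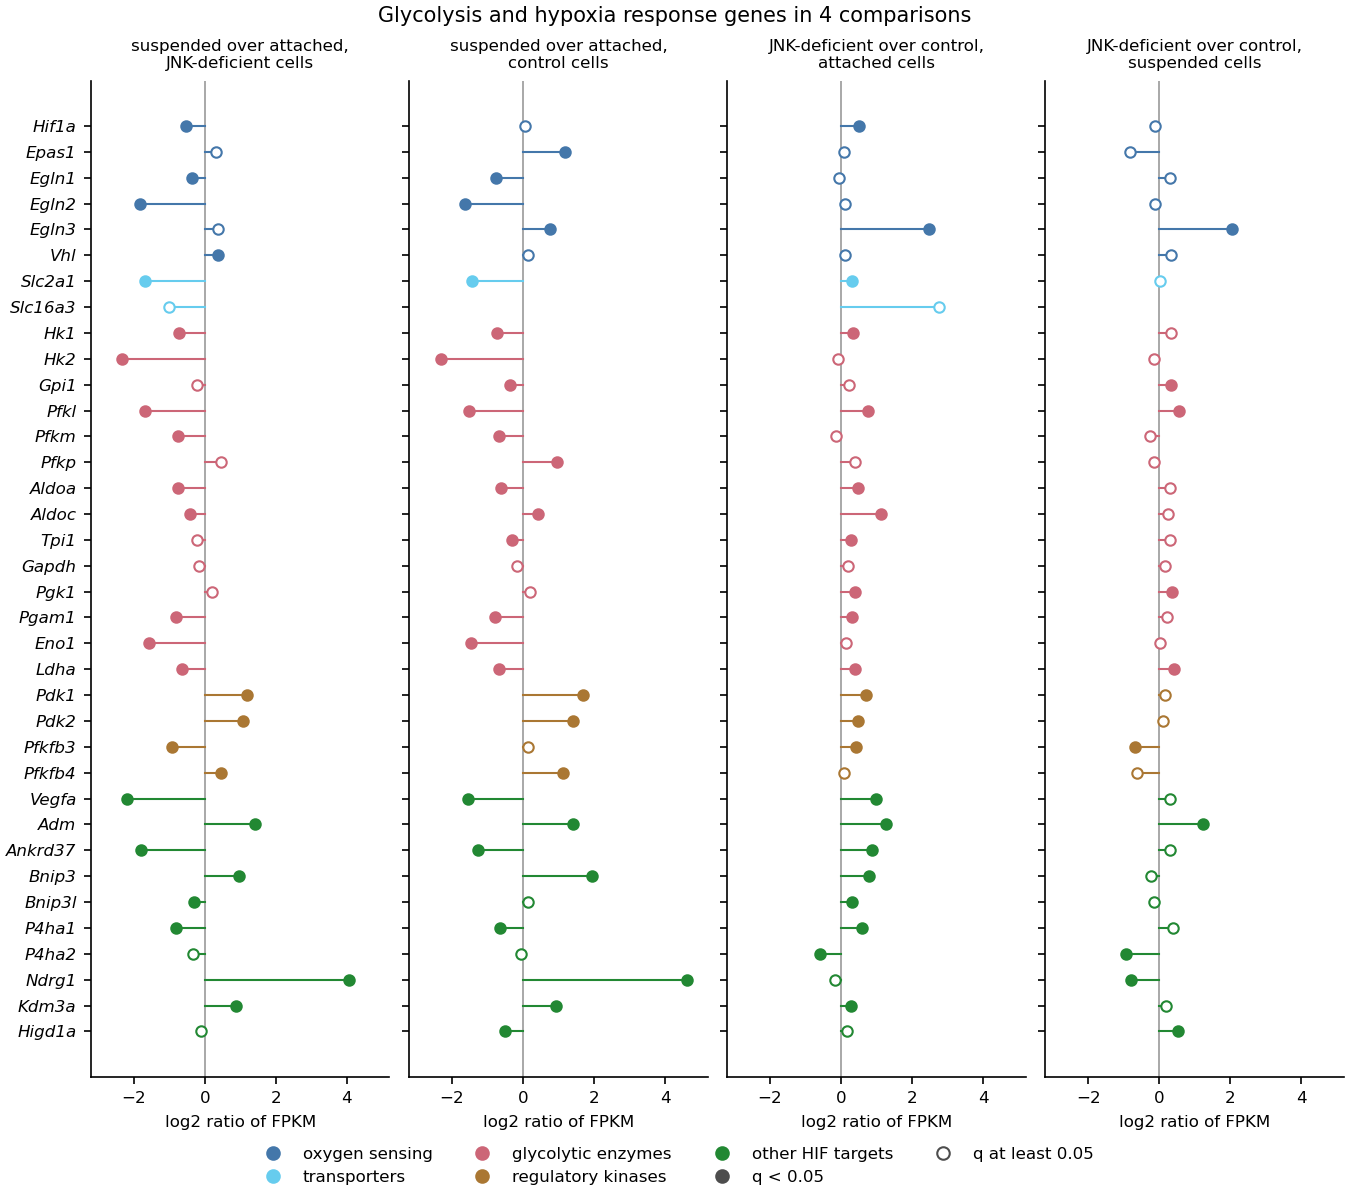
Log2 ratio of FPKM (x axis) of each gene (rows, coloured by role) in 4 comparisons (panels), with filled points at q < 0.05 and open points at a higher q; Slc16a3 is left out of the comparisons in which it was not tested. In the panels for suspension most enzymes lie left of 0 and Ndrg1 lies farthest right, at 4.05 in JNK-deficient and 4.62 in control cells, and in the panel for attached cells 31 of 36 genes lie right of 0.

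The glycolytic enzymes were mostly lower in suspended cells. By the authors' deposited tables, 9 of the 14 fell and 0 rose in JNK-deficient cells (median log2 fold change -0.68), and 10 fell and 2 rose in control cells (median -0.65). The 22 genes outside the enzymes were more evenly divided, with 8 higher and 9 lower in JNK-deficient cells, and 9 higher and 7 lower of 21 tested in control cells, by the authors' deposited tables. All genes tested were also evenly divided, with 30.6% higher and 29% lower in JNK-deficient cells, and 33% and 32.1% in control cells. Whether the enzymes differ from the other genes was not tested. The largest fall among the enzymes was that of Hk2 (chr6:82725027-82774454 on mm10), an inducible hexokinase that starts glycolysis at the mitochondrial surface. It stood at 9.11 FPKM in suspended and 46.3 FPKM in attached JNK-deficient cells (log2 -2.34), and at 10.4 and 51.9 FPKM in suspended and attached control cells (-2.31), per the authors' deposited tables. Hk2 was lower in suspended than in attached cells of both genotypes.

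Pfkl, the liver-type phosphofructokinase of the pathway's committed step, stood at 14.9 FPKM in suspended and 48.2 FPKM in attached JNK-deficient cells (-1.70) per the authors' deposited table. In control cells it was at 10.4 FPKM suspended and 30.0 FPKM attached (-1.53) per the authors' deposited table. Eno1, an enolase, was at 88.6 FPKM in suspended and 263 FPKM in attached JNK-deficient cells (-1.57), and at 91.0 and 253 FPKM in suspended and attached control cells (-1.47), per the authors' deposited tables. Its entry also holds the gene Gm5506, so the value cannot be given to Eno1 alone. Pgam1, a phosphoglycerate mutase, was at 203 FPKM in suspended and 360 FPKM in attached JNK-deficient cells (-0.82), and at 180 and 308 FPKM in suspended and attached control cells (-0.77), per the authors' deposited tables. Ldha, which makes lactate from pyruvate, fell to 415 FPKM in suspended JNK-deficient cells, against 644 FPKM attached (-0.63), and to 323 FPKM in suspended control cells, against 518 FPKM attached (-0.68), per the authors' deposited tables. Aldoa fell to 491 FPKM in suspended JNK-deficient cells, against 824 FPKM attached (-0.75), and to 409 FPKM in suspended control cells, against 631 FPKM attached (-0.63), per the authors' deposited tables. All of these had the lowest q-value of their table, 0.000144 in JNK-deficient and 0.000123 in control cells. Hk1 and Pfkm also fell in both genotypes, by 0.69 to 0.76 on the log2 scale, per the authors' deposited tables. After adjustment for GC and length Hk1 passed in control cells (-0.40, adjusted p = 0.0486) and not in JNK-deficient cells (-0.26, adjusted p = 0.216), from the authors' p-values.

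A few enzymes behaved otherwise. Pfkp, the platelet-type phosphofructokinase, rose in control cells to 22.2 FPKM suspended, against 11.5 FPKM attached (log2 0.95, q = 0.000123), per the authors' deposited table. Pfkp in JNK-deficient cells was at 19.5 FPKM suspended and 14.2 FPKM attached (0.46, q = 0.0683) per the authors' deposited table. Aldoc, the brain-type aldolase, is the one gene of the set with opposite calls, lower in suspended JNK-deficient cells and higher in suspended control cells. It was at 8.51 FPKM suspended and 11.4 FPKM attached in JNK-deficient cells (-0.42, q = 0.0436), and at 7.39 and 5.55 FPKM suspended and attached in control cells (0.41, q = 0.0227), per the authors' deposited tables. Pgk1, which makes the first ATP of the pathway, was at 433 FPKM suspended and 376 FPKM attached in JNK-deficient cells and at 347 and 302 FPKM suspended and attached in control cells (0.20 in both, q = 0.0919 and 0.0711) per the authors' deposited tables. Gpi1, glucose-6-phosphate isomerase, was at 118 FPKM suspended and 136 FPKM attached in JNK-deficient cells (-0.21, q = 0.0914) and fell to 95.5 FPKM in suspended control cells, against 124 FPKM attached (-0.38, q = 0.00067), per the authors' deposited tables. The rise of Aldoc and the fall of Tpi1 in control cells did not pass after adjustment for GC and length. Tpi1, triose phosphate isomerase, likewise fell in control cells (-0.29, q = 0.0079) and had -0.22 (q = 0.0747) in JNK-deficient cells. Gapdh did not pass in either genotype (-0.17 in both, q = 0.18 in JNK-deficient and 0.158 in control cells) by the authors' deposited tables.

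Suspension effects on FPKM also ran with base composition. Across all genes with a matched transcript, Spearman's rho between the log2 fold change and the GC content of the longest transcript was -0.40 in JNK-deficient cells (11505 genes) and -0.34 in control cells (11738 genes), and across the set it was -0.34 (36 genes) and -0.44 (35 genes). These are descriptions across genes that share the same libraries. The enzymes had a median GC content of 53.5%, beside about 50.1% over all genes tested. When each fold change was set against the local median of genes of like GC content and length, 7 genes of the set rose and 13 fell in JNK-deficient cells, against 26.2% and 23.6% of all genes so tested. In control cells 10 rose and 14 fell, against 30.6% and 27.7%. Among the enzymes, 6 fell and 1 rose in JNK-deficient cells, and 7 fell and 2 rose in control cells. Hk2, Pfkl, Pfkm, Pgam1 and Ldha were among the falls in both genotypes after this correction. Aldoa was not (0.13 in JNK-deficient and 0.08 in control cells). Nor, with p-values from those of the authors, was Eno1 (-0.69, adjusted p = 0.125, and -0.77, adjusted p = 0.0577), although Eno1 and Hk1 passed in both genotypes when GC and length were the medians over a gene's transcripts. Gapdh became higher in suspended cells of both genotypes (0.42 and 0.44, adjusted p = 0.000941 and 0.000326, from the authors' p-values). With the medians over a gene's transcripts, Gapdh passed in JNK-deficient cells and not in control cells. Whether base composition caused any of these differences was not tested.

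**Figure D2:**
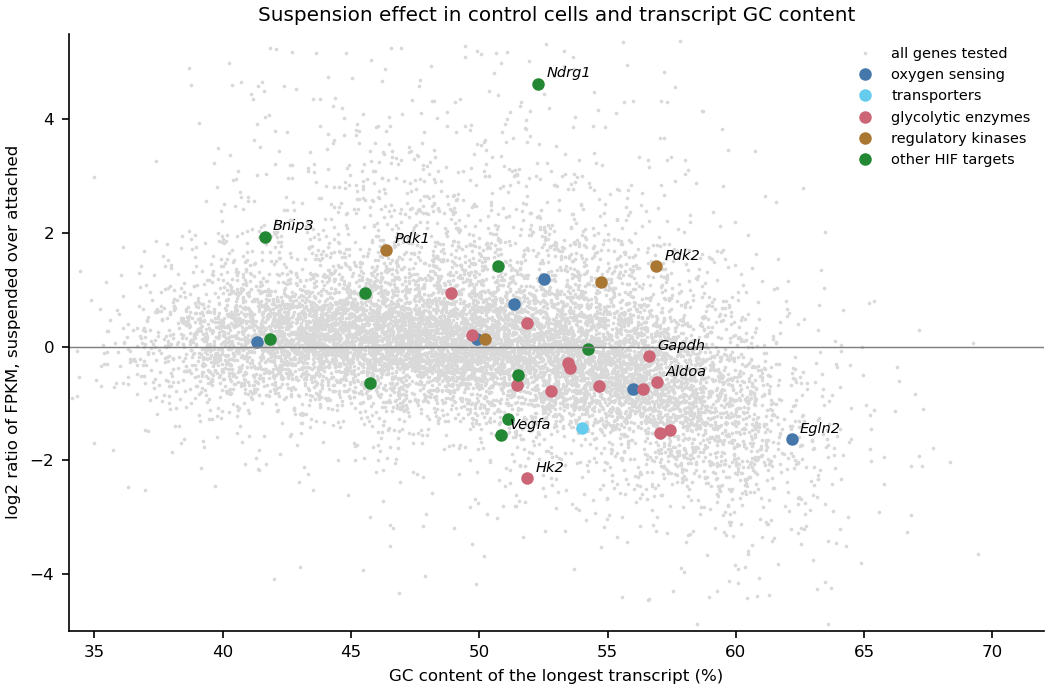
Log2 ratio of FPKM, suspended over attached control cells (y axis), against GC content of the longest transcript in percent (x axis), for all genes tested (grey) and for the set (coloured by role). The grey cloud tilts down to the right (rho -0.34), with Ndrg1 far above it at 4.62 and Hk2 below it at -2.31.

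The gene for the main glucose transporter fell in both genotypes. Slc2a1 (chr4:119108745-119137329), which encodes the glucose transporter GLUT1, stood at 47.7 FPKM in suspended and 152 FPKM in attached JNK-deficient cells (log2 -1.67, q = 0.000144) per the authors' deposited table. In control cells it was at 48.2 FPKM suspended and 131 FPKM attached (-1.44, q = 0.000123) per the authors' deposited table. Suspended levels were below attached levels, and close to each other, in both genotypes. Slc16a3 was at 0.529 FPKM suspended and 1.07 FPKM attached in JNK-deficient cells (-1.02, q = 0.529), and it was not tested in control cells, at 0.359 FPKM suspended and 0.168 FPKM attached, per the authors' deposited tables. Its entry overlaps Csnk1d.

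Of the 4 regulatory kinase genes, 3 rose in both genotypes, though Pfkfb4 in JNK-deficient cells did not pass when the median of all genes was set to 0. Of all genes tested, 30.6% rose in JNK-deficient and 33% in control cells. PDK1 and PDK2 phosphorylate and switch off pyruvate dehydrogenase, the enzyme that feeds pyruvate into the citric acid cycle. Pdk1 (chr2:71873272-71903858) stood at 8.74 FPKM in suspended and 3.82 FPKM in attached JNK-deficient cells (log2 1.19), and at 8.05 and 2.47 FPKM in suspended and attached control cells (1.70), per the authors' deposited tables. Pdk2 (chr11:95026258-95041371) was at 27.5 FPKM suspended and 13.1 FPKM attached in JNK-deficient cells (1.07), and at 26.5 and 9.92 FPKM suspended and attached in control cells (1.42), per the authors' deposited tables. Suspended cells thus stood above attached cells in both genotypes for both genes, with the lowest q of each table. The PFKFB enzymes make and break fructose 2,6-bisphosphate, the main activator of phosphofructokinase. Pfkfb4 was at 2.93 FPKM suspended and 2.13 FPKM attached in JNK-deficient cells (0.46, q = 0.0476), and at 4.64 and 2.12 FPKM suspended and attached in control cells (1.13, q = 0.000123), per the authors' deposited tables. Pfkfb3 (chr2:11471431-11553929) fell to 7.15 FPKM in suspended JNK-deficient cells, against 13.5 FPKM attached (-0.92, q = 0.000144), per the authors' deposited table. In control cells it was at 11.8 FPKM suspended and 10.8 FPKM attached (0.13, q = 0.338) per the authors' deposited table.

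Of the 6 oxygen-sensing genes, 1 rose and 3 fell in JNK-deficient cells (median log2 fold change -0.03) and 2 rose and 2 fell in control cells (0.10), by the authors' deposited tables. Of all genes tested, 30.6% rose and 29% fell in JNK-deficient cells, and 33% and 32.1% in control cells. After adjustment for GC and length, 0 of the 6 rose and 1 fell in JNK-deficient cells, and 1 rose and 2 fell in control cells. The shares of all genes so tested were 26.2% and 23.6% in JNK-deficient cells, and 30.6% and 27.7% in control cells. The prolyl hydroxylase genes did not move together. Egln2 (PHD1) fell to 8.11 FPKM in suspended JNK-deficient cells, against 28.7 FPKM attached (log2 -1.82), and to 9.04 FPKM in suspended control cells, against 28.0 FPKM attached (-1.63), per the authors' deposited tables. With a GC content of 62.2%, the highest of the set, it no longer passed after adjustment for GC and length (-0.68, adjusted p = 0.197, and -0.51, adjusted p = 0.265, from the authors' p-values). Egln1 (PHD2), the main oxygen sensor in most cells, was at 17.5 FPKM suspended and 22.4 FPKM attached in JNK-deficient cells (-0.36, q = 0.0129), and at 14.5 and 24.4 FPKM suspended and attached in control cells (-0.75, q = 0.000123), per the authors' deposited tables. After the correction Egln1 had a log2 fold change of 0.02 in JNK-deficient cells (adjusted p = 0.932, from the authors' p-values). Egln3 (PHD3), itself a strong HIF target, was at 6.95 FPKM suspended and 5.41 FPKM attached in JNK-deficient cells (0.36, q = 0.078), and rose in control cells to 1.73 FPKM suspended, against 1.03 FPKM attached (0.75, q = 0.00815), per the authors' deposited tables. Hif1a (chr12:73901375-73949785) fell in JNK-deficient cells to 57.3 FPKM suspended, against 82.6 FPKM attached (-0.53, q = 0.000144), and in control cells was at 64.3 FPKM suspended and 61.2 FPKM attached (0.07, q = 0.554), per the authors' deposited tables. After adjustment for GC and length, Hif1a had -0.27 in control cells (adjusted p = 0.0187, from the authors' p-values), and Egln3 in control cells and Vhl in JNK-deficient cells no longer passed. Vhl, the recognition subunit for hydroxylated HIF, rose in JNK-deficient cells to 16.3 FPKM suspended, against 12.5 FPKM attached (0.38, q = 0.0191), and was at 13.3 and 12.2 FPKM suspended and attached in control cells (0.13, q = 0.344), per the authors' deposited tables. Epas1 rose in control cells, below 1 FPKM, to 0.922 FPKM suspended, against 0.406 FPKM attached (1.18, q = 0.000239), and was at 0.507 FPKM suspended and 0.411 FPKM attached in JNK-deficient cells (0.30, q = 0.399), per the authors' deposited tables.

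The 10 other HIF targets were divided evenly, with 4 higher and 4 lower in each genotype by the authors' deposited tables. The shares of all genes tested were 30.6% higher and 29% lower in JNK-deficient cells, and 33% and 32.1% in control cells. Ndrg1 (chr15:66929318-67013039), a stress- and hypoxia-responsive gene tied to differentiation, had the largest change of the set. It stood at 157 FPKM in suspended and 9.50 FPKM in attached JNK-deficient cells, a 16.6-fold rise (log2 4.05, q = 0.000144), per the authors' deposited table. In control cells it was at 280 FPKM suspended and 11.3 FPKM attached, a 24.7-fold rise (4.62, q = 0.000123), per the authors' deposited table. The Ndrg1 entry overlaps another entry. Bnip3 (chr7:138890836-138909506), a mitophagy receptor of the BH3-only class, was at 37.1 FPKM suspended and 19.1 FPKM attached in JNK-deficient cells (0.96), and at 44.8 and 11.7 FPKM suspended and attached in control cells (1.93), per the authors' deposited tables. Adm (chr7:110627669-110629819), which encodes the vasodilator peptide adrenomedullin, was at 57.8 FPKM suspended and 21.8 FPKM attached in JNK-deficient cells, and at 25.3 and 9.53 FPKM suspended and attached in control cells, by the authors' deposited tables. Its log2 fold change was 1.41 in both genotypes. Kdm3a, a histone demethylase, rose by 0.87 in JNK-deficient and 0.93 in control cells per the authors' deposited tables. After adjustment for GC and length it passed in control cells (0.66, adjusted p = 0.00912) and not in JNK-deficient cells (0.39, adjusted p = 0.116), from the authors' p-values.

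Vegfa (chr17:46016993-46032377), the vascular endothelial growth factor, moved the other way. It fell to 26.7 FPKM in suspended JNK-deficient cells, against 123 FPKM attached (log2 -2.21), and to 22.3 FPKM in suspended control cells, against 65.5 FPKM attached (-1.56), per the authors' deposited tables. Ankrd37, an ankyrin repeat gene, fell to 1.85 FPKM in suspended JNK-deficient cells, against 6.43 FPKM attached (-1.80, q = 0.00375), and to 1.55 FPKM in suspended control cells, against 3.73 FPKM attached (-1.27, q = 0.0159), per the authors' deposited tables; its entry overlaps Lrp2bp. P4ha1, a collagen prolyl hydroxylase subunit, fell by 0.81 in JNK-deficient and by 0.64 in control cells per the authors' deposited tables. Its paralog P4ha2 was at 4.81 FPKM suspended and 6.04 FPKM attached in JNK-deficient cells (-0.33, q = 0.147), and at 9.42 and 9.69 FPKM suspended and attached in control cells (-0.04, q = 0.79), per the authors' deposited tables. Bnip3l, the paralog of Bnip3, fell in JNK-deficient cells (-0.30, q = 0.0141) and had 0.13 (q = 0.239) in control cells, while Higd1a, a small mitochondrial protein of hypoxia, had -0.12 (q = 0.477) in JNK-deficient cells and fell in control cells (-0.50, q = 0.000123), per the authors' deposited tables.

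**Figure D3:**
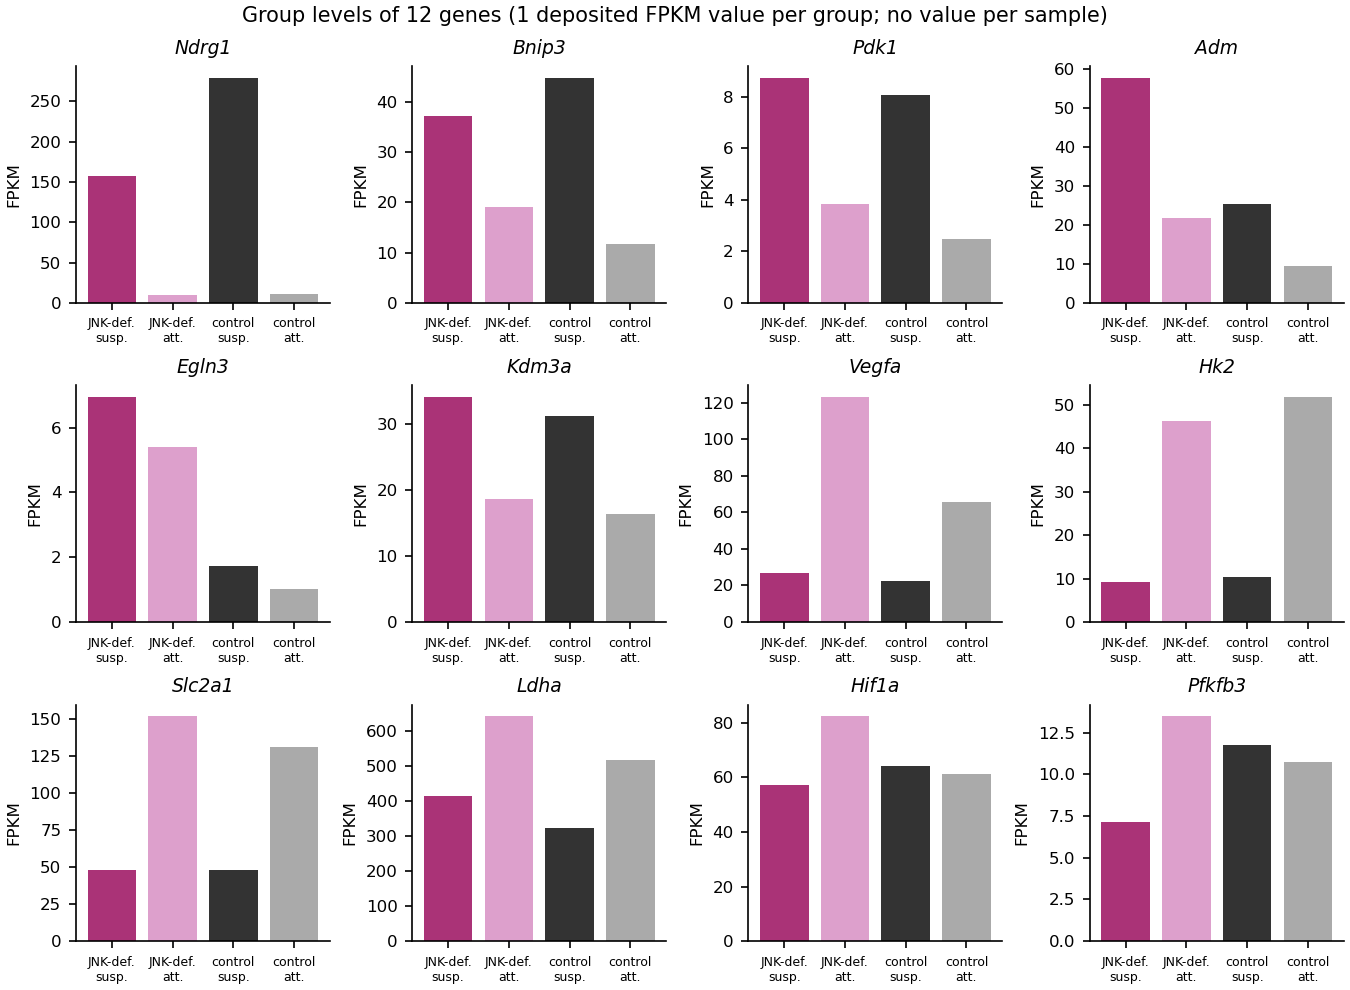
FPKM (y axis, from 0) of 12 genes in 4 groups, 1 bar for each group's deposited value, with no error since no value per sample was used. Ndrg1, Bnip3, Pdk1, Adm and Kdm3a stand higher in suspended than in attached cells of both genotypes, Vegfa, Hk2, Slc2a1 and Ldha lower, and Egln3 and Adm are higher in JNK-deficient cells whether suspended or attached.

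Paralog shares within families differed between suspended and attached cells of both genotypes. Of the summed FPKM of the phosphofructokinases, Pfkp held 44.0% in suspended and 17.9% in attached JNK-deficient cells, and 49.4% and 18.7% in suspended and attached control cells. Pfkl held 33.5% and 60.7% in suspended and attached JNK-deficient cells, and 23.1% and 48.8% in suspended and attached control cells. The GC content of Pfkl is 57.1% and that of Pfkp 48.9%, and the part of base composition in this difference was not tested. Hk2 held 11.4% of Hk1 plus Hk2 in suspended and 28.3% in attached JNK-deficient cells, and 15.1% and 34.6% in suspended and attached control cells. The GC content of Hk2 is 51.9% and that of Hk1 56.4%. Among the prolyl hydroxylases, Egln3 held 21.4% in suspended and 9.57% in attached JNK-deficient cells, and 6.84% and 1.92% in suspended and attached control cells. The GC content is 51.4% for Egln3, 56.0% for Egln1 and 62.2% for Egln2. After adjustment for GC and length, neither Egln2 in either genotype nor Egln3 in control cells passed. The part of base composition in the hexokinase and hydroxylase shares was not tested. Bnip3 held 33.2% of Bnip3 plus Bnip3l in suspended and 17.2% in attached JNK-deficient cells, and 34.4% and 13.1% in suspended and attached control cells. No test of shares was possible from 1 value per group.

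**Figure D4:**
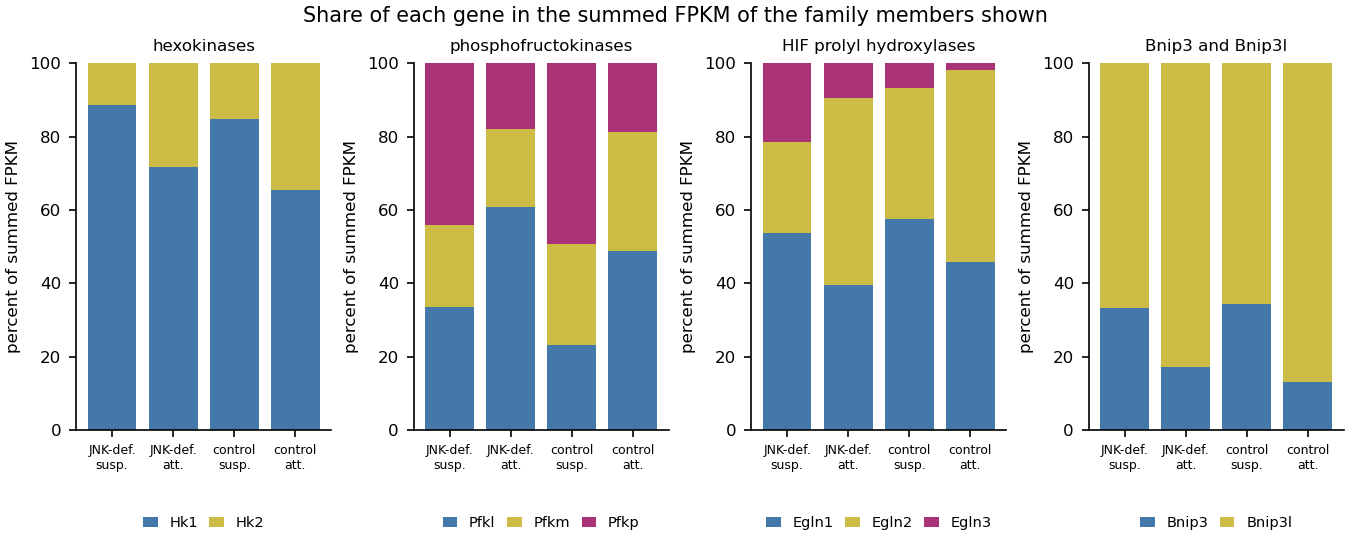
Percent of the summed FPKM of the genes shown (y axis) held by each gene of 4 families, in suspended and attached JNK-deficient and control cells (bars). The Pfkp and Egln3 parts are larger in suspended than in attached cells of each genotype, and the Hk2 part is smaller.

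In attached cells, 22 of the 36 genes differed between genotypes, against 28.8% of all genes tested, and most were higher without JNK. By the authors' deposited table, 21 of 36 genes were higher in attached JNK-deficient than in attached control cells, against 14.7% of all 12960 genes tested, and 1 was lower, against 14.1%. The median log2 fold change was 0.33, beside -0.00067 over all genes tested, and 31 of the 36 had a positive fold change. Most of these differences were small: 9 of the 21 reached 1.5-fold. All roles took part, with 8 of 14 enzymes, 3 of 4 kinases, 1 of 2 transporters, 2 of 6 oxygen-sensing genes and 7 of 10 other HIF targets higher by the authors' deposited table. Among marker lists, the leukocyte sum was 77.8 FPKM in attached JNK-deficient and 55.7 FPKM in attached control cells and the proximal tubule sum, made mostly of Aqp1, 343 and 119 FPKM by the authors' deposited tables, and their part in the result was not tested. Spearman's rho of the fold change with GC content was -0.01 over all genes and -0.32 over the 36 genes of the set. After correction for GC content and length, 22 genes were higher (15.6% of all so tested) and 1 lower (14.7%).

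Egln3 (chr12:54178981-54203874) differed most among the genes called, at 5.38 FPKM in attached JNK-deficient and 0.965 FPKM in attached control cells, 5.57-fold higher (log2 2.48), per the authors' deposited table. Adm was at 21.7 FPKM in JNK-deficient and 8.96 FPKM in control cells (1.27), Aldoc at 11.4 and 5.22 FPKM (1.12) and Vegfa at 123 and 61.6 FPKM (0.99), in attached JNK-deficient and attached control cells per the authors' deposited table. Ankrd37 was at 6.39 FPKM in attached JNK-deficient and 3.51 FPKM in attached control cells (0.87), and Bnip3 at 19.0 and 11.0 FPKM (0.78), per the authors' deposited table. Pfkl was 1.70-fold higher, at 47.9 FPKM in attached JNK-deficient and 28.2 FPKM in attached control cells (0.77), and Pdk1 1.64-fold higher, at 3.80 and 2.33 FPKM (0.71), per the authors' deposited table. Hif1a was at 82.2 FPKM in attached JNK-deficient and 57.6 FPKM in attached control cells (0.51) per the authors' deposited table. Each of these 9 genes had the table's lowest q-value, 0.000347. Aldoa (0.47), Pdk2 (0.48), Pfkfb3 (0.41), Pgk1 (0.40) and Ldha (0.40) shared that q-value per the authors' deposited table. The rest of the 21 (Slc2a1, Hk1, Tpi1, Pgam1, Bnip3l, P4ha1 and Kdm3a) had log2 fold changes of 0.28 to 0.59. P4ha2 was the 1 gene lower in attached JNK-deficient cells, at 6.01 FPKM in JNK-deficient and 9.11 FPKM in control cells (-0.60, q = 0.000347) per the authors' deposited table. Slc16a3 had the largest fold change, at 1.07 FPKM in attached JNK-deficient and 0.158 FPKM in attached control cells (2.75), but did not pass (q = 0.294) per the authors' deposited table.

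HIF binds a core of ACGTG or GCGTG, and promoter windows show which genes of the set carry it near their start. RefSeq start sites on GRCm38.p6, the same assembly as mm10, gave windows from 250 bases before to 50 bases after the start for 33 of the 36 genes. The core was found on either strand in 27 of these 33 windows (81.8%), beside 43.8% of all 32851 windows of that length. That count covers the whole set and does not set apart the genes higher in attached JNK-deficient cells. Of the genes without a core, Hk1, Aldoa, Tpi1 and Vegfa were called higher in attached JNK-deficient cells, and Vhl and Gpi1 were not. The windows of the set were also richer in GC, with a median of 64.7% beside 52.7% over all windows, and these 2 measures were not separated. The windows of the 6 genes with the largest rises among those called and matched are shown 5′ to 3′ on the gene's strand, with each core in capitals, also where it lies on the other strand as CACGT or CACGC. They were chosen by their measured fold change, so their order is no further evidence. They lie at chr12:54203825-54204124 (Egln3, minus strand), chr7:110627407-110627706 (Adm, plus), chr11:78322823-78323122 (Aldoc, plus), chr17:46032328-46032627 (Vegfa, minus), chr8:45999801-46000100 (Ankrd37, minus; start 29626 bases from the end of the deposited entry) and chr7:138909457-138909756 (Bnip3, minus).
Egln3: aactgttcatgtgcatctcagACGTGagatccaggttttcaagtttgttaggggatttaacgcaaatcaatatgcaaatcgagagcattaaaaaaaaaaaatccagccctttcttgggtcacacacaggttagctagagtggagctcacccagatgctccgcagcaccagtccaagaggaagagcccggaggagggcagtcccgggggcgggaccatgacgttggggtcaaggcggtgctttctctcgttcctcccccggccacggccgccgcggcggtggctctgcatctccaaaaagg
Adm: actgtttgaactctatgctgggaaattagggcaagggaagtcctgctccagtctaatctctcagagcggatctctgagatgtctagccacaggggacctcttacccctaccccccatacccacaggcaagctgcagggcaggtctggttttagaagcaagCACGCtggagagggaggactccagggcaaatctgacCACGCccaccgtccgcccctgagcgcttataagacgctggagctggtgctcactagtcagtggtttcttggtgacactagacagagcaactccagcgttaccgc
Aldoc: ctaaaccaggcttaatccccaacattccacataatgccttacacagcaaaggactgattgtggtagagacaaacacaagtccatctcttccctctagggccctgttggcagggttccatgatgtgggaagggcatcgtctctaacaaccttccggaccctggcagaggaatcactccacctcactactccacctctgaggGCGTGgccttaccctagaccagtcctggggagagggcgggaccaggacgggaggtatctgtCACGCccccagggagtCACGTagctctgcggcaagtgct
Vegfa: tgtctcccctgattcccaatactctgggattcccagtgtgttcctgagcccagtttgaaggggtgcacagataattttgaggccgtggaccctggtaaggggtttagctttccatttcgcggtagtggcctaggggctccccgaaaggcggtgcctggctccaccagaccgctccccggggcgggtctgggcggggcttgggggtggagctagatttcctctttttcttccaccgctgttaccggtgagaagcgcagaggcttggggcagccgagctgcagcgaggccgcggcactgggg
Ankrd37: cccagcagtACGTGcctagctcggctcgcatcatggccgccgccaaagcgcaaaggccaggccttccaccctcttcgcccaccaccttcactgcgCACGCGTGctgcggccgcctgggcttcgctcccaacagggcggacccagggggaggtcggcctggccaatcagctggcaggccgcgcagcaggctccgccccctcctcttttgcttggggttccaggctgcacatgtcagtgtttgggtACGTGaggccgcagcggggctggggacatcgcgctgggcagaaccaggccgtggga
Bnip3: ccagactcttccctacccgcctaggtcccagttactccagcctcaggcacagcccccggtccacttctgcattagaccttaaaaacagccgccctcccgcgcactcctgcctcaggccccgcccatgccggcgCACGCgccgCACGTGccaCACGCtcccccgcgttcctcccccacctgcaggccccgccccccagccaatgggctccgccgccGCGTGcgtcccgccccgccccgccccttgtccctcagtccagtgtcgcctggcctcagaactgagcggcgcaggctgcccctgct
The windows of Egln3, Adm, Aldoc, Ankrd37 and Bnip3 hold 1, 2, 3, 4 and 5 cores, and that of Vegfa holds 0. Overlapping cores, such as CACGTG in Bnip3, count once on each strand. The absence from the Vegfa window says only that these letters do not stand there. P4ha2, the gene lower in attached JNK-deficient cells, has 4 cores in its window, and Ldha has 7. Binding was not measured.

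In suspended cells 10 genes of the set differed between genotypes, against 12.5% of all genes tested. By the authors' deposited table, 7 of 35 genes tested were higher in suspended JNK-deficient than in suspended control cells, against 5.57% of all 12795 genes tested, and 3 were lower, against 6.93%. The median log2 fold change was 0.18, beside 0.01 over all genes tested. The proximal tubule sum was 193 FPKM in suspended JNK-deficient and 46.6 FPKM in suspended control cells by the authors' deposited tables, and its part in the result was not tested. Egln3 was at 7.31 FPKM in suspended JNK-deficient and 1.76 FPKM in suspended control cells (2.06, q = 0.00099), and Adm at 61.0 and 25.7 FPKM (1.25, q = 0.00099), per the authors' deposited table. These 2 were the genes that reached 1.5-fold among the 7 higher. The others of the 7 were the enzyme genes Pfkl (0.57, q = 0.00331), Ldha (0.41, q = 0.00533), Pgk1 (0.37, q = 0.0164) and Gpi1 (0.35, q = 0.0418) and the mitochondrial gene Higd1a (0.52, q = 0.0189), per the authors' deposited table. After adjustment for GC and length, 9 genes were higher (5.66% of all so tested) and 3 lower (7.48%), with Hk1 and Aldoa added. With the medians over a gene's transcripts, Gpi1 and Higd1a no longer passed, and Hk1 and Aldoa were not added. Higd1a was at 28.0 FPKM in suspended JNK-deficient and 19.5 FPKM in suspended control cells per the authors' deposited table. The 3 lower genes were P4ha2, Ndrg1 and Pfkfb3. P4ha2 was at 5.07 FPKM in suspended JNK-deficient and 9.58 FPKM in suspended control cells (-0.92, q = 0.00182) per the authors' deposited table. Ndrg1 was at 166 FPKM in suspended JNK-deficient and 284 FPKM in suspended control cells (-0.78, q = 0.00099) per the authors' deposited table. Pfkfb3 was at 7.54 FPKM in suspended JNK-deficient and 11.99 FPKM in suspended control cells (-0.67, q = 0.00182) per the authors' deposited table. It is the 1 gene of the set called in opposite directions by attachment, higher without JNK in attached cells and lower in suspended cells.

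Whether suspension acted differently in the genotypes was tested with the difference of the log2 fold changes, JNK-deficient minus control, which uses all 4 groups. The fold changes of suspension and of JNK loss share these groups, so they are not independent of it. Standard errors came from the fold change and its p-value, and where p was at its lowest step, 5e-05, they are upper bounds. Of 35 genes tested, 3 had a smaller or more negative suspension effect in JNK-deficient cells (1.25% of all 12765 genes tested) and 0 a larger one (0.548%). At an unadjusted p below 0.05 there were 10 genes, 8 of them negative. The median difference was -0.17, beside 0.04 over all genes, and 26 of the 35 were negative. No share over all genes stands beside the unadjusted and the negative counts, so they describe the set and are no result about it. Pfkfb3 had a difference of -1.05 (standard error at most 0.200, adjusted p = 0.000101), Bnip3 of -0.97 (at most 0.242, adjusted p = 0.00857) and Hif1a of -0.60 (at most 0.166, adjusted p = 0.0254), all from the authors' p-values.

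The way to these differences varied. Pfkfb3 and Hif1a fell with suspension in JNK-deficient cells and did not pass in control cells, and both were higher in attached JNK-deficient than in attached control cells. After adjustment for GC and length by the longest transcript, Hif1a was lower in suspended cells of both genotypes. It had -0.90 in JNK-deficient cells and -0.27 in control cells (adjusted p = 0.0187 in control cells, from the authors' p-values). Bnip3 rose in both genotypes, 1.95-fold in JNK-deficient and 3.81-fold in control cells, by the authors' deposited tables. Bnip3 did not pass when the standard error came from the suspension tables alone (adjusted p = 0.798), nor Hif1a when it came from the genotype tables alone (adjusted p = 0.0523), each built on the authors' p-values. On both of these routes a p-value was at its lowest step, so the standard error is an upper bound. Not passing there cannot decide whether the differences hold. Aldoc, with opposite calls in the genotypes, had a difference of -0.84 (standard error 0.254, adjusted p = 0.0518), from the authors' p-values. Ndrg1 had -0.57 (95% interval -0.99 to -0.16, adjusted p = 0.181) and Vegfa -0.65 (-1.33 to 0.03, adjusted p = 0.487), from the authors' p-values. For the enzymes Hk2 (-0.03, 95% interval -0.38 to 0.32), Ldha (0.05, -0.25 to 0.34) and Pgk1 (0.00, -0.29 to 0.29) the intervals span 0 with bounds under 0.40 on either side. They were wider for Pfkp (-0.49, -1.03 to 0.05), Pfkl (-0.17, -0.64 to 0.31) and Pfkm (-0.08, -0.62 to 0.47). An interval that spans 0 does not show equal effects.

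**Figure D5:**
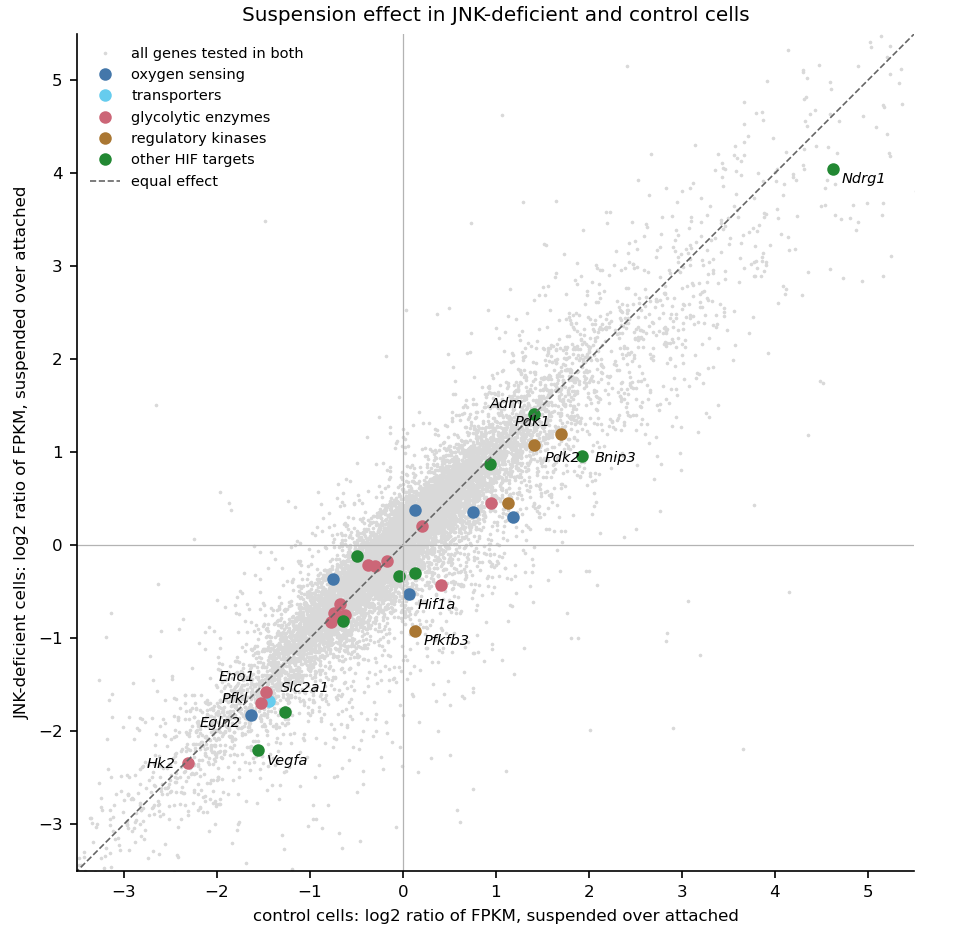
Log2 ratio of FPKM, suspended over attached, in JNK-deficient cells (y axis) against control cells (x axis), for all genes tested in both (grey) and the set (coloured by role), with a dashed line of equal effect; Slc16a3, not tested in control cells, is left out. Pfkfb3, Bnip3 and Hif1a, the 3 genes with an adjusted p below 0.05 for the difference, lie below the line, as do 26 of 35 genes. The share of all genes below the line is not given.

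Other genes of these pathways moved in both directions with suspension, beside 30.6% higher and 29% lower of all genes tested in JNK-deficient cells, and 33% and 32.1% in control cells. Counts near those shares are no result about a list, and no list was set against other genes by a test. Of 9 further regulators of HIF tested, 4 rose and 2 fell in JNK-deficient cells, and 4 rose and 3 fell in control cells, by the authors' deposited tables. Arnt, the stable partner of HIF alpha, rose to 20.6 FPKM in suspended JNK-deficient cells, against 9.56 FPKM attached (log2 1.11), and to 20.1 FPKM in suspended control cells, against 8.90 FPKM attached (1.17), per the authors' deposited tables. Arnt2 (1.79 and 1.96) and Cited2, a competitor of HIF for its coactivator (1.44 and 0.78), rose as well, and Tceb2, elongin B of the VHL complex, fell (-3.04 and -2.96), in JNK-deficient and control cells per the authors' deposited tables. Of 14 further glycolysis genes tested in JNK-deficient cells 4 rose and 5 fell, and of 13 in control cells 4 rose and 5 fell, by the authors' deposited tables. The neuronal enolase gene Eno2 rose (1.88 and 1.80) while the muscle enolase gene Eno3 fell (-1.99 and -1.63), as did Gpd1 (-1.80 and -1.94), in JNK-deficient and control cells per the authors' deposited tables.

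Of 19 further HIF targets tested in JNK-deficient cells, 5 rose and 7 fell, and of 18 in control cells, 4 rose and 7 fell, by the authors' deposited tables. Mif, a cytokine (-3.16 and -3.09), and Stc2, a stanniocalcin (-2.67 and -1.77), fell in JNK-deficient and control cells, while Mxi1, a MYC antagonist, rose (0.70 and 0.88), per the authors' deposited tables. Of 11 genes of pyruvate entry and pyruvate dehydrogenase, 5 rose and 2 fell in JNK-deficient cells, and 3 rose and 3 fell in control cells, by the authors' deposited tables. Pdk4, a further pyruvate dehydrogenase kinase, rose to 33.1 FPKM in suspended JNK-deficient cells, against 5.25 FPKM attached (2.66), and to 19.4 FPKM in suspended control cells, against 2.70 FPKM attached (2.84), per the authors' deposited tables. Of 7 genes of the pentose phosphate pathway, which branches from glycolysis to make NADPH, 2 rose and 1 fell in JNK-deficient cells, and 2 rose and 4 fell in control cells, by the authors' deposited tables. The dehydrogenase genes Pgd (1.39 and 1.33) and G6pdx (1.25 and 1.19) rose and Pgls fell (-2.57 and -2.82) in JNK-deficient and control cells per the authors' deposited tables. Of 6 glycogen genes tested, 4 rose and 1 fell in JNK-deficient cells, and 3 rose and 1 fell in control cells, by the authors' deposited tables. The glycogen genes Gbe1 (1.20 and 0.75) and Ugp2 (0.73 and 0.77) rose and the glycogen synthase gene Gys1 fell (-0.80 and -0.88) in JNK-deficient and control cells per the authors' deposited tables. Of the gluconeogenesis genes, 2 of 5 tested rose and 3 fell in JNK-deficient cells, and 3 of 6 rose and 2 fell in control cells, by the authors' deposited tables. Shares of all genes adjusted for GC and length were 26.2% higher and 23.6% lower in JNK-deficient cells. In control cells they were 30.6% and 27.7%. The pyruvate list then had 2 higher and 3 lower of 11 genes in JNK-deficient cells, and 3 and 3 of 11 in control cells. The further HIF targets had 3 higher and 9 lower of 19 in JNK-deficient cells, and 2 and 6 of 18 in control cells. The gluconeogenesis genes had 2 higher and 1 lower of 5 in JNK-deficient cells, and 3 and 1 of 6 in control cells. The glycogen genes had 4 higher and 0 lower of 6 in JNK-deficient cells, and 2 and 1 of 6 in control cells. The further regulators had 4 and 0 of 6 in JNK-deficient cells, and 4 and 1 of 7 in control cells. The further glycolysis genes had 4 and 4 of 13 in JNK-deficient cells, and 4 and 4 of 12 in control cells. The pentose phosphate genes had 3 and 1 of 6 in JNK-deficient cells, and 3 and 4 of 7 in control cells. Among single genes, Mxi1 (0.22, adjusted p = 0.286) and Gys1 (-0.38, adjusted p = 0.0975) in JNK-deficient cells did not pass, from the authors' p-values. Tceb2 had no matched transcript and was not adjusted.

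With JNK loss these other genes moved in both directions too, beside 14.7% higher and 14.1% lower of all genes tested in attached cells, and 5.57% and 6.93% in suspended cells. In attached cells, 6 of 19 further HIF targets were higher and 5 lower, 0 of 9 regulators higher and 1 lower, and 2 of 14 further glycolysis genes higher and 3 lower in JNK-deficient cells by the authors' deposited table. Stc2 was at 27.7 FPKM in attached JNK-deficient and 8.53 FPKM in attached control cells (log2 1.70), per the authors' deposited table. Pcx, pyruvate carboxylase, was at 8.82 FPKM in attached JNK-deficient and 3.71 FPKM in attached control cells (1.25), and Pdk4 at 5.22 and 2.54 FPKM (1.04), per the authors' deposited table. Lower in attached JNK-deficient cells were Car12, a carbonic anhydrase (-0.89), Angptl4 (-0.69), Cited2 (-0.45) and Ldhb, the other lactate dehydrogenase subunit gene (-0.40), per the authors' deposited table. Of the other lists, 2 of 5 gluconeogenesis genes, 2 of 5 glycogen genes, 2 of 7 pentose phosphate genes and 3 of 11 pyruvate genes were higher in attached JNK-deficient cells, and 0, 0, 1 and 1 lower, by the authors' deposited table. In suspended cells the higher and lower counts were 1 and 2 of 18 HIF targets, 0 and 0 of 9 regulators, 0 and 2 of 13 glycolysis genes, 0 and 0 of 6 gluconeogenesis genes, 1 and 0 of 5 glycogen genes, 2 and 0 of 7 pentose phosphate genes and 3 and 0 of 11 pyruvate genes by the authors' deposited table. Among suspended cells, Pdk4 (0.82), G6pdx (0.75) and Mpc2, a subunit of the mitochondrial pyruvate carrier (0.62), were higher in JNK-deficient cells, and Angptl4 (-1.85), Car12 (-1.67), Pgm1 (-0.72) and Ldhb (-0.52) lower, per the authors' deposited table.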

How the data were processed

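RNA from 12 samples of mouse kidney epithelial cells was sequenced, 3 in each of 4 groups, assigned from the genotype and culture labels. Per the submitters' processing notes the reads went through TopHat and Bowtie, Cufflinks 1.0.3 and Cuffdiff on the build mm10, and the labels' protocols describe mRNA libraries run on an Illumina sequencer. The sources used here do not give the other versions, the annotation, strandedness or read length. The 4 tables hold, as the authors deposited them, 1 FPKM value per group, a p-value and a q-value for each of 31026 entries. P-values come in steps of 5e-05, and entries that the authors list with p = 1 were taken as not tested. The deposited log2 ratio was not used, since some cells hold a spreadsheet error, and fold changes were computed from FPKM. FPKM values of a group moved together between tables, by up to 0.0895 in log2, so levels are compared within 1 table. Levels in the accounts of suspension come from the suspension tables, those in the accounts of JNK loss from the genotype tables. With no value per sample, no SD, depth, counting interval, leave-one-out or other split could be had.

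The genes, their roles and the lists of other genes were chosen with earlier results of these data known. Values are printed for up to 4 genes per role and comparison by size among those past q < 0.05 with at least 1 FPKM in the higher group, for every gene past the threshold for the difference, and for up to 3 other genes per list, direction and comparison. Kdm3a, Tpi1, Gapdh, Hk1, Pfkm, Bnip3l, P4ha1, Epas1 and Slc16a3 are named outside that rule. Genes of the set were found by exact symbol, and 1 of 86 other genes through a synonym.

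The difference of suspension effects was tested with a two-sided z-test (Python 3.11.15, SciPy 1.17.1) over 12765 entries with Benjamini-Hochberg adjustment. Each standard error was the size of a log2 fold change over the normal score of its p-value (p at most 0.95), taken through the suspension and the genotype tables, as their mean where no p was at its lowest step, otherwise by the route without one, otherwise as the smaller bound; 11 of the 35 genes tested have such a bound. The test was checked on data simulated under its own normal model, which cannot show whether the authors' p-values follow that model. The GC and length correction subtracted the local median in 20 bins of GC content, each of 5 bins of length, from GENCODE transcripts of the same assembly. It first used the median over a gene's transcripts and was changed to the longest transcript after its results had been seen, because the median took short fragments for some genes; both are given. Promoter windows with several RefSeq starts are those nearest the entry's own start. Of the 36 genes, 9 overlap another entry (Hif1a, Slc16a3, Hk1, Pfkl, Pfkm, Pfkp, Tpi1, Ankrd37 and Ndrg1) and 1 shares its entry (Eno1). Reads from near-identical copies, of which Gapdh and other glycolytic genes have many in the mouse genome, or from the other strand could not be told apart. Some genes of the other lists are counted but not reported here by name.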

Additional observations from a re-analysis of the deposited data

Results flagged for a closer look

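The suspension effect differed between genotypes by its own test for 3 genes of the set, each given as JNK-deficient minus control on the log2 scale. Pfkfb3 differed by -1.05, with suspension effects of -0.92 in JNK-deficient and 0.13 in control cells. Bnip3 differed by -0.97, with effects of 0.96 and 1.93 in JNK-deficient and control cells. Hif1a differed by -0.60, with effects of -0.53 and 0.07 in JNK-deficient and control cells. After adjustment for GC and length by the longest transcript, the Hif1a effects were -0.90 and -0.27 in JNK-deficient and control cells. The standard errors of the 3 differences are upper bounds.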

How the results depend on the processing

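No paired analysis was possible because the tables hold no value per sample, and for the same reason no sample could be left out. Counts below are of genes of the set. A minimum of 1.5-fold left 9 genes higher in attached and 2 higher in suspended JNK-deficient cells, and q < 0.01 left 4 higher in suspended JNK-deficient cells. Of the differences of suspension effects, 0 lower ones were left among entries with no p at its lowest step, by construction since all 3 had one, and 5 passed with the GC and length correction, which added Aldoc (adjusted p = 0.0387) and Bnip3l (adjusted p = 0.0265), from the authors' p-values. All other counts called stayed within 1.5 times under the alternatives run. Setting the median of all genes to 0 changed the sign of none of the fold changes called, but Pfkfb4 no longer passed in suspended JNK-deficient cells (0.42). Among fold changes past the threshold before or after it, the correction for GC content and length changed the sign of Egln1 (0.0176), Aldoa (0.13) and Gapdh (0.42) in suspended JNK-deficient cells and of Hif1a (-0.27), Aldoa (0.0802) and Gapdh (0.44) in suspended control cells. The signs of Pfkfb3, Vhl, Bnip3l and P4ha2 in control cells, which passed neither before nor after, changed too. With the median over transcripts in place of the longest one, which was run first and is kept as an alternative chosen after seeing the data, the sign changed, by the same criterion, for Aldoa (0.00187 in JNK-deficient, 0.12 in control cells), Gapdh (0.26 in JNK-deficient cells) and P4ha2 (0.33 in control cells). The suspension calls lost without a change of sign under the longest transcript were those of Egln2, Vhl, Hk1, Eno1 and Kdm3a in JNK-deficient cells and of Egln2, Egln3, Aldoc, Tpi1 and Eno1 in control cells. With the median over transcripts they were those of Egln1, Egln2, Vhl, Aldoc and Kdm3a in JNK-deficient cells and of Egln2, Egln3 and Tpi1 in control cells, so the losses of Hk1, Eno1 and Aldoc depend on the transcript chosen. So does the call of Gapdh as higher in suspended control cells. The cause was not tested. Depth per sample is unknown, so no limit of detection can be given, and with 1 value per group small differences cannot be read beyond the authors' q-values.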
